A study of Homo sapiens with 6 samples.

Results

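The genes described here are 10 genes of MHC class II antigen presentation, out of 61533 gene rows in the table: the master regulator CIITA, the DNA-binding factors RFX5 and RFXAP, the chain genes HLA-DRA, HLA-DRB1, HLA-DPA1 and HLA-DPB1, the peptide-loading chaperone genes HLA-DMA and HLA-DMB, and CD74, the invariant chain. They were selected on these measured values: their levels were lower together in shKDM2B cells than in empty vector cells. Their values in that comparison are therefore a description, with no test, and only genes outside the 10 are tested below. The study sequenced ribosome-depleted total RNA of MDA-MB-231, a long-established cell line from human triple-negative breast cancer that grows as mesenchymal-like cells. The shKDM2B group has 3 libraries of cells with a short hairpin RNA against KDM2B, and the empty vector group has 3 libraries of the same line, labelled wild type. KDM2B is a histone demethylase that binds CG-rich DNA and brings in a variant Polycomb repressive complex, and the series asks, by its title, how it bears on amino acid metabolism. The cells were grown in serum-containing medium, with no interferon named, and the labels do not say whether the shKDM2B cells are a clone or a pool. All knockdown columns carry the same code, and the control is an empty vector, not a non-targeting hairpin. Effects of losing KDM2B and other effects of carrying the hairpin therefore cannot be told apart in these libraries.

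MHC class II molecules are pairs of an alpha and a beta chain that show peptides from endosomes to CD4+ helper T cells. They are a hallmark of B cells, macrophages and dendritic cells, but interferon gamma switches them on in many other cells, breast cancer cells included. CIITA does not bind DNA itself. It docks on a platform at class II promoters in which RFX (RFX5, RFXAP and RFXANK) sits on the X1 box, CREB-family proteins on the X2 box and NF-Y on the Y box, and it then recruits histone acetyltransferases and other coactivators. The invariant chain CD74 blocks the groove and guides class II molecules to endosomes, where HLA-DM exchanges its last fragment for peptide.

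Promoter stretches, in which the letters of these boxes were looked for, are shown for 7 of the 10 genes and for the related chain gene HLA-DRB5. Not every stretch holds such letters, and that of RFXAP holds none of those marked. Each line gives 120 bases, from 130 to 11 bases before the annotated start, read 5′ to 3′ on the gene's own strand, from RefSeq on GRCh38.p14. Capitals mark the X1 core GCAAC, the X-box stretch CTGATGATG, which runs from the X1 box into the X2 box, and the Y box, which reads ATTGG or, on the other strand, CCAAT. The first 3 share the X-box stretch, and the others are set beside them to show where those letters differ.
HLA-DRB1: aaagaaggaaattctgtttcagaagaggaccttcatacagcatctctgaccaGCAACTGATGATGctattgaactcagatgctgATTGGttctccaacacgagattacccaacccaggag
HLA-DMA: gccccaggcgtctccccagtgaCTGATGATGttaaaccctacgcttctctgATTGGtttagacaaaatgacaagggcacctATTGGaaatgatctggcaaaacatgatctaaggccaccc
HLA-DMB: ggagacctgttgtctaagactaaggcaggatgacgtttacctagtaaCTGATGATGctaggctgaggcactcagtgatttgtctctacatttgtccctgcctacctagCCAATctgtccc
HLA-DPA1: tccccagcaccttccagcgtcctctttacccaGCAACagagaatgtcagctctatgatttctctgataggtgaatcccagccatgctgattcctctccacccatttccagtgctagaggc
HLA-DPB1: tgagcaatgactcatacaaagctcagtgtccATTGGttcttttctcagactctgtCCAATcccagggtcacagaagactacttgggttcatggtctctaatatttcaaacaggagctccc
CD74: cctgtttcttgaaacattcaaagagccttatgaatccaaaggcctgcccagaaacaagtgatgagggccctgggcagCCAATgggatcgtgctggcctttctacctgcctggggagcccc
RFXAP: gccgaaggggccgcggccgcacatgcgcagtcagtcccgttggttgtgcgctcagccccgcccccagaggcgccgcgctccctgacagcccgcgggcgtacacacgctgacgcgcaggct
HLA-DRB5: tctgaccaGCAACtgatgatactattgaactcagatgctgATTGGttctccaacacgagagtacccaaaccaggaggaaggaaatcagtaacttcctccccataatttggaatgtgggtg
These stretches lie at chr6:32589859-32589978 (minus strand) for HLA-DRB1, chr6:32953108-32953227 (minus) for HLA-DMA, chr6:32941039-32941158 (minus) for HLA-DMB, chr6:33073660-33073779 (minus) for HLA-DPA1 and chr6:33075860-33075979 (plus) for HLA-DPB1. The others lie at chr5:150412921-150413040 (minus) for CD74, chr13:36819092-36819211 (plus) for RFXAP and chr6:32530298-32530417 (minus) for HLA-DRB5.

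Motifs were counted on both strands in windows from 250 bases before to 50 bases after the start. Windows were matched for 8 of the 10 genes (11 windows, since RFX5 and HLA-DPA1 have several starts), and the other two are CIITA and HLA-DRA. The X-box stretch CTGATGATG, searched for after the sequences had been read, was found in the windows of HLA-DRB1, HLA-DMA and HLA-DMB, and in 0.271% of all 35116 windows. In HLA-DRB1 its first base lies 28 bases from the start of the next exact ATTGG or CCAAT downstream, in HLA-DMA 29 bases and in HLA-DMB 61 bases. Inexact matches were not searched for, and in HLA-DMB the letters ATTTG lie between the stretch and that CCAAT. An X1 core followed within 15 to 50 bases by ATTGG was found in HLA-DRB1 and in 455 of all 35116 windows. HLA-DRB5 and HLA-DOA hold the same pairing. The X-box stretch of HLA-DRB5 differs from that of HLA-DRB1 only in its last letter, reading CTGATGATA in place of CTGATGATG.

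The X1 core, X2 core and Y box, taken singly, were common everywhere. The X1 core GCAAC was present in 5 of the 11 windows (4 of the 8 genes), beside 33.6% of all windows. The Y box CCAAT was present in 6 of the 11 windows (6 of the 8 genes), beside 34.6% of all windows. For the X2 core TGACG these were 7 of the 11 windows (5 of the 8 genes) and 24.6% of all windows. The E box CACGTG (7.26% of windows) occurred in RFX5, as did the interferon response core, GAAA and a second GAAA with any 2 bases between (3.57%). The gamma-activated site TTCNNNGAA (7.66% of windows) was in none of the 11. A match describes letters in the window and no binding was measured.

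CG dinucleotides, the letters that KDM2B's zinc finger recognises when unmethylated, differed in number among the 8 genes. The windows of HLA-DRB1, HLA-DPB1, CD74, HLA-DMA and HLA-DMB held 1, 2, 3, 3 and 4 CG, and the HLA-DPA1 start shown above held 4. A second HLA-DPA1 start held 27. The RFX5 windows held 18, 11 and 17 CG and that of RFXAP held 30, against a median of 14 over all windows. Windows with at most 4 CG make up 29.6% of the whole set.

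Library totals ran from 10437732 to 15737951 counts in shKDM2B and from 10190149 to 13635565 counts in empty vector, so a count of 0 allows up to 0.195 to 0.291 CPM (counts scaled to the library's effective size). KDM2B itself had 153, 166 and 224 counts in shKDM2B against 589, 714 and 902 in empty vector. Its level was 14.6 ± 0.183 CPM in shKDM2B and 63.3 ± 5.56 CPM in empty vector (SD, n = 3 each; log2 fold change -2.12, SE 0.08, adjusted p 8.75e-11 by edgeR's quasi-likelihood test with Benjamini-Hochberg adjustment). The difference between the groups was broad. Of 14071 genes tested, 60.9% passed an adjusted p under 0.05, 30.5% being higher and 30.4% lower in shKDM2B cells. The labelled line was checked with VIM, CD44, AXL, KRT18 and MSN, whose summed level was 5915 to 6183 CPM in shKDM2B and 6366 to 6527 CPM in empty vector libraries. That sum hides unequal changes: VIM, the mesenchymal filament vimentin, was lower, at 404.7 ± 10.2 CPM in shKDM2B and 1295 ± 52.1 CPM in empty vector (log2 fold change -1.68, SE 0.04), while CD44 (0.20) and AXL (0.17) were higher. Genes expected to be low in this line were EPCAM, ESR1, PGR, ERBB2 and CDH1. Their sum was 70.971 to 74.243 CPM in shKDM2B and 62.817 to 81.745 CPM in empty vector libraries. ERBB2 made up most of it, at 62.3 ± 3.79 CPM in shKDM2B and 63.5 ± 8.31 CPM in empty vector. EPCAM had 101, 142 and 126 counts in shKDM2B and 85, 114 and 110 in empty vector. Neither gene was called. CDH1, which was not tested, had 4, 4 and 2 counts in shKDM2B against 0 in each empty vector library.

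Cell types that normally carry class II were looked for among the same libraries. B cell markers (7 genes) summed to 2.73 to 3.10 CPM in shKDM2B and 3.88 to 5.32 CPM in empty vector, with MS4A1 at 0 in every library. CD22 made up most of that sum and was the only one tested, lower in shKDM2B (log2 fold change -0.84, SE 0.20). Myeloid and dendritic markers (12 genes) summed to 4.10 to 5.52 CPM in shKDM2B and 1.55 to 2.47 CPM in empty vector, with LYZ, TYROBP, AIF1, CD1C and FLT3 at 0 throughout and PTPRC at 4 counts or fewer. T cell markers (5 genes) summed to 3.198 to 5.59 CPM in shKDM2B and 6.30 to 7.65 CPM in empty vector, nearly all of it CD8A (log2 fold change -0.56, SE 0.19), with CD3D and CD3E at 0. Endothelial (3 genes) and fibroblast (4 genes) markers summed to at most 1.55 CPM in any library.

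All 10 genes had lower CPM in each shKDM2B library than in any empty vector library. Over all tested genes, 32.5% were lower with groups that do not overlap, but the 10 were chosen for being lower and nothing is read from their count. Their median log2 fold change was -2.36, beside -0.01 over all tested genes. All 10 passed the filter on low counts, HLA-DRB1, HLA-DPA1, HLA-DPB1 and HLA-DMB through their empty vector counts alone. In bulk RNA, fewer cells expressing these genes and less RNA per expressing cell cannot be told apart.

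**Figure D1:**
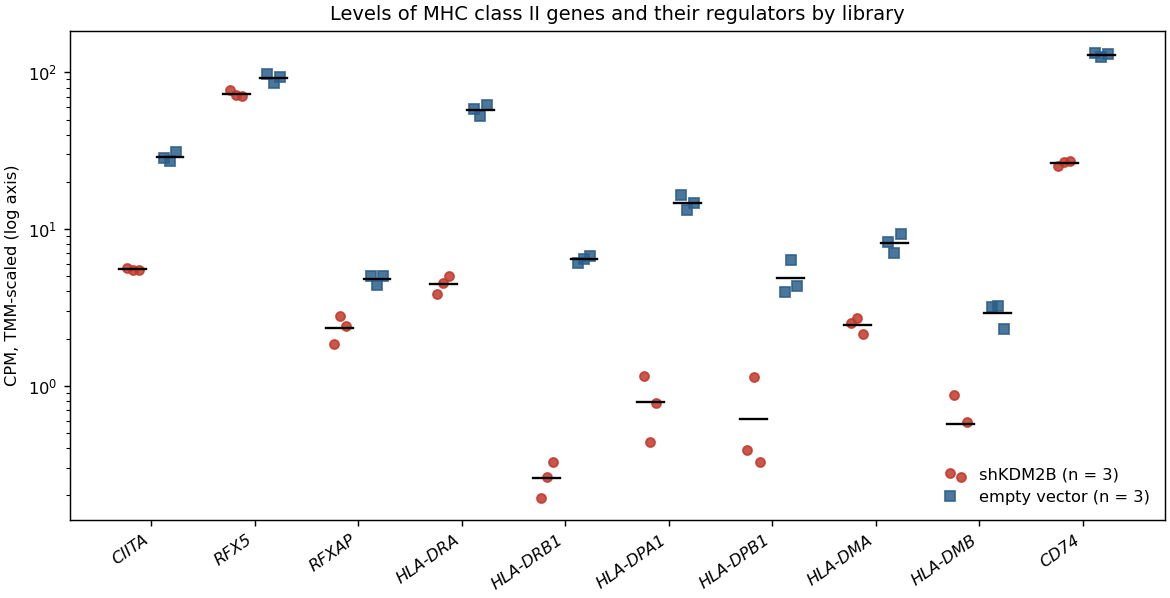
Level of each of the 10 genes in CPM scaled by TMM, on a log axis, in the 3 shKDM2B libraries (red circles, left of each pair) and the 3 empty vector libraries (blue squares, right), with black bars at the means. The groups lie close for RFX5, at 73.0 CPM in shKDM2B and 92.3 CPM in empty vector, and far apart for HLA-DRB1, at 0.260 CPM in shKDM2B and 6.43 CPM in empty vector.

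CIITA (ENSG00000179583.20, GRCh38 chr16:10866222-10943021, plus strand), the switch of the whole programme, had 58, 63 and 84 counts in shKDM2B libraries 1, 2 and 3, against 293, 287 and 433 in empty vector. These correspond to 5.62, 5.50 and 5.45 CPM in shKDM2B and 28.4, 27.2 and 31.3 CPM in empty vector. The shKDM2B libraries were nearly level with each other (5.52 ± 0.0871 CPM) and sat at 19.1% of the empty vector mean of 28.97 ± 2.06 CPM (SD, n = 3 each; log2 fold change -2.39, SE 0.11). CIITA has several promoters used in different cell types, and counts per gene do not show which was used. DEXI, a neighbouring gene on the other strand named here after its values were seen, shares 2416 exon bases with CIITA, or 11.6% of CIITA's annotated exon length. AC133065.3, an annotated gene on CIITA's own strand, shares 2378 exon bases, or 11.5%. DEXI had 29, 31 and 41 counts in shKDM2B and 62, 52 and 93 in empty vector and was also lower (log2 fold change -1.12, SE 0.18, adjusted p 8.73e-05, edgeR's quasi-likelihood test). The strand setting of the count and the treatment of shared reads are not stated in the sources used, and the part of the shared bases in either value was not tested.

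The RFX subunits moved less. RFX5 (ENSG00000143390.18, chr1:151340640-151347357, minus strand), the DNA-binding subunit, had 77.0, 71.5 and 70.4 CPM in shKDM2B against 97.8, 85.2 and 94.0 CPM in empty vector. That is 79.01% of the empty vector level (log2 fold change -0.34, SE 0.06), the smallest difference among the 10, and 26.1% of all tested genes had a lower fold change. RFXAP (ENSG00000133111.4, chr13:36819224-36829104, plus strand), the RFX-associated protein, had 1.84, 2.79 and 2.40 CPM in shKDM2B (19, 32 and 37 counts) against 5.04, 4.37 and 5.05 CPM in empty vector (52, 46 and 70 counts). It stood at 48.7% of the empty vector level (log2 fold change -1.03, SE 0.19). Loss of any RFX subunit or of CIITA causes bare lymphocyte syndrome in humans, in which class II is missing from the cell surface.

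RFXANK, the remaining RFX subunit and not one of the 10, was higher, with 17.6, 17.3 and 17.7 CPM in shKDM2B against 14.1, 15.5 and 12.6 CPM in empty vector (log2 fold change 0.33, SE 0.10, adjusted p 0.0117, edgeR's quasi-likelihood test). The groups do not overlap, but without empty vector replicate 3 the adjusted p was 0.0777.

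Little RNA of the DR chains was left in shKDM2B cells. HLA-DRA (ENSG00000204287.14, chr6:32439842-32445046, plus strand), the nearly invariant alpha chain of HLA-DR, had 40, 52 and 77 counts in shKDM2B against 600, 552 and 854 in empty vector. In CPM it had 3.88, 4.54 and 5.00 in shKDM2B against 58.2, 52.4 and 61.6 in empty vector, which left 7.79% (log2 fold change -3.66, SE 0.11). HLA-DRB1 (ENSG00000196126.11, chr6:32578769-32589848, minus strand), the polymorphic beta chain, had 2, 3 and 5 counts in shKDM2B against 63, 68 and 93 in empty vector. Summed over libraries and scaled to their effective sizes, this left 4.17% of the empty vector level, with a 95% Clopper-Pearson interval of 1.97% to 7.81% that covers counting error only. Its log2 fold change of -4.53 (SE 0.27) was the lowest of all 14071 tested genes in this fit. With a prior count of 2 in place of the default it was -3.92, above the -3.98 of HLA-DPA1, and without shKDM2B replicate 1 it was -4.39, above the -4.52 of HLA-DPA1.

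HLA-DRB1 is a member of a family of near copies. Of its 50-base words, 9.92% occur in another annotated gene (117 of 1180 words, 102 of them in HLA-DRB5). That share describes the reference sequence and sets no bound on the error of the count. HLA-DRB3 and HLA-DRB4 were not among the gene rows, and where any reads from them were counted was not tested. HLA-DRB5, an additional DR beta gene carried by some haplotypes, had 0 counts in all shKDM2B libraries against 5, 18 and 20 in empty vector, at least 15.4-fold lower when 3 counts over the group are taken as the floor. It missed the filter on low counts and was not tested. The part of reads shared with HLA-DRB1 in its counts was not tested.

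The DP chains were also left at a few counts. HLA-DPA1 (ENSG00000231389.8, chr6:33064569-33080775, minus strand), the DP alpha chain, had 12, 5 and 12 counts in shKDM2B against 169, 139 and 204 in empty vector. Its level was 0.793 ± 0.363 CPM in shKDM2B and 14.8 ± 1.59 CPM in empty vector, or 5.37% left (log2 fold change -4.22, SE 0.22), next to HLA-DRB1 in the order of all tested genes, an order that changes with the setting as given above. HLA-DPB1 (ENSG00000223865.11, chr6:33075926-33087201, plus strand), the DP beta chain, had 4, 13 and 5 counts in shKDM2B against 41, 67 and 60 in empty vector. Replicate 2 was the highest in both groups for this gene. HLA-DPB1 stood at 0.616 ± 0.451 CPM in shKDM2B and 4.89 ± 1.29 CPM in empty vector, 12.6% left (log2 fold change -3.01, SE 0.36). Without shKDM2B replicate 2 the log2 fold change was -3.75. The pair of genes run head to head on opposite strands and share 96 exon bases.

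HLA-DM, which edits the peptides of the other class II molecules, had smaller fold changes in the fit than the DR and DP chains. HLA-DMA (ENSG00000204257.15, chr6:32948613-32969094, minus strand) had 26, 31 and 33 counts in shKDM2B against 85, 74 and 128 in empty vector. Its level of 2.46 ± 0.287 CPM in shKDM2B was 30.1% of the 8.17 ± 1.11 CPM in empty vector (log2 fold change -1.76, SE 0.18). HLA-DMB (ENSG00000242574.9, chr6:32934629-32941070, minus strand) had 9, 3 and 9 counts in shKDM2B against 33, 34 and 32 in empty vector (log2 fold change -2.32, SE 0.34). Whether the fold changes of this pair differ was not tested. An annotated readthrough transcript shares 125 of the 1074 50-base words of HLA-DMA and 391 of the 1348 of HLA-DMB, and its own row held no count in any library.

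CD74 (ENSG00000019582.17, chr5:150401637-150412929, minus strand), which lies outside the MHC, had the highest CPM of the 10 in empty vector cells, and RFX5 the highest in shKDM2B cells. It had 261, 308 and 416 counts in shKDM2B against 1361, 1325 and 1818 in empty vector, or 25.3, 26.9 and 27.0 CPM in shKDM2B and 132, 126 and 131 CPM in empty vector. That is 20.4% of the empty vector mean (log2 fold change -2.29, SE 0.06), close to the 19.1% of CIITA. None of its 50-base words occurs in another annotated gene.

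**Figure D2:**
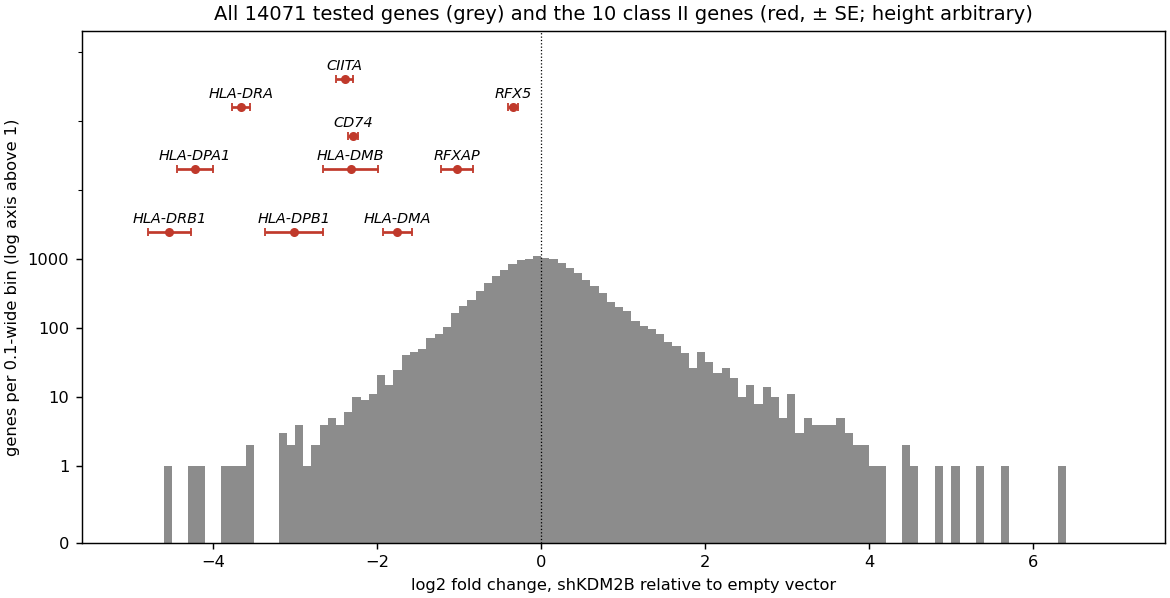
Distribution of log2 fold changes, shKDM2B relative to empty vector, over all 14071 tested genes (grey histogram, log count axis), with the 10 genes as red points ± SE set at arbitrary heights above it. The class II genes lie between -4.53 for HLA-DRB1 and -0.34 for RFX5, and RFX5 falls inside the bulk of all genes.

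Levels were compared between genes as CPM per kilobase of the longest RefSeq-linked transcript (for RFXAP, of its longest coding transcript). In empty vector cells CD74 led at 89.5 ± 2.32, followed by HLA-DRA at 44.8 ± 3.64 and RFX5 at 25.8 ± 1.82 CPM per kilobase (SD, n = 3). HLA-DPA1 at 8.67 and HLA-DMA at 7.27 overlapped between libraries, HLA-DRB1 at 5.23 and HLA-DPB1 at 3.13 stood below them, and RFXAP, HLA-DMB and CIITA were lowest and overlapped, at 2.09, 2.08 and 1.80. In shKDM2B cells the order was another. RFX5 led at 20.4 ± 0.979, then CD74 at 18.2 ± 0.658, HLA-DRA at 3.49 ± 0.440 and HLA-DMA at 2.19 ± 0.256 CPM per kilobase. RFXAP followed at 1.02, then HLA-DPA1, HLA-DMB, HLA-DPB1 and CIITA between 0.465 and 0.344 with overlap between neighbours, and HLA-DRB1 was last at 0.212.

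Transcript choice sets the place of CIITA and of CD74 in that order. With its shortest RefSeq-linked transcript (2344 bases in place of 16059) CIITA came to 2.36 CPM per kilobase in shKDM2B and 12.4 in empty vector. CD74 with its shortest transcript came to 26.9 in shKDM2B and 132 in empty vector, and then led in both groups. The alpha chain HLA-DRA exceeded HLA-DRB1 in each group, at 3.49 and 0.212 CPM per kilobase in shKDM2B and at 44.8 and 5.23 in empty vector. The limit on the HLA-DRB1 count given above applies to this comparison.

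Other classical and nonclassical class II genes were at or near the floor. HLA-DQA1 had no count in any library, and HLA-DQB1, HLA-DQA2 and HLA-DQB2 had at most 2 counts. HLA-DOA, which with HLA-DOB forms an inhibitor of HLA-DM, had 0 counts in every shKDM2B library against 0, 10 and 2 in empty vector, so its groups overlap. HLA-DOB, in contrast, had 5, 3 and 8 counts in shKDM2B against 3, 3 and 5 in empty vector, and its promoter also holds the X-box stretch CTGATGATG, 27 bases from its Y box. None of these passed the filter on low counts.

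The tested genes between the class II genes on chromosome 6 changed in both directions. Of 33 other annotated genes in the table between BTNL2 and COL11A2, 18 had no count and 5 were tested. The others, HLA-DRB5 among them, missed the filter on low counts, and with no filter beyond 1 read 5 neighbours were called lower in place of 2. TAP2, a subunit of the class I peptide transporter, was lower, at 59.8 ± 2.43 CPM in shKDM2B and 98.6 ± 10.3 CPM in empty vector (log2 fold change -0.72, SE 0.07, adjusted p 9.06e-07, edgeR's quasi-likelihood test). TAP1, its partner subunit, was higher (log2 fold change 0.54, SE 0.08), as was BRD2, a bromodomain protein gene that shares 55 exon bases with HLA-DMA on the opposite strand (log2 fold change 0.76, SE 0.05). The immunoproteasome subunit PSMB8 was lower (log2 fold change -0.38, SE 0.12), though not called without shKDM2B replicate 3, and PSMB9 (-0.46, SE 0.24) did not pass.

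**Figure D3:**
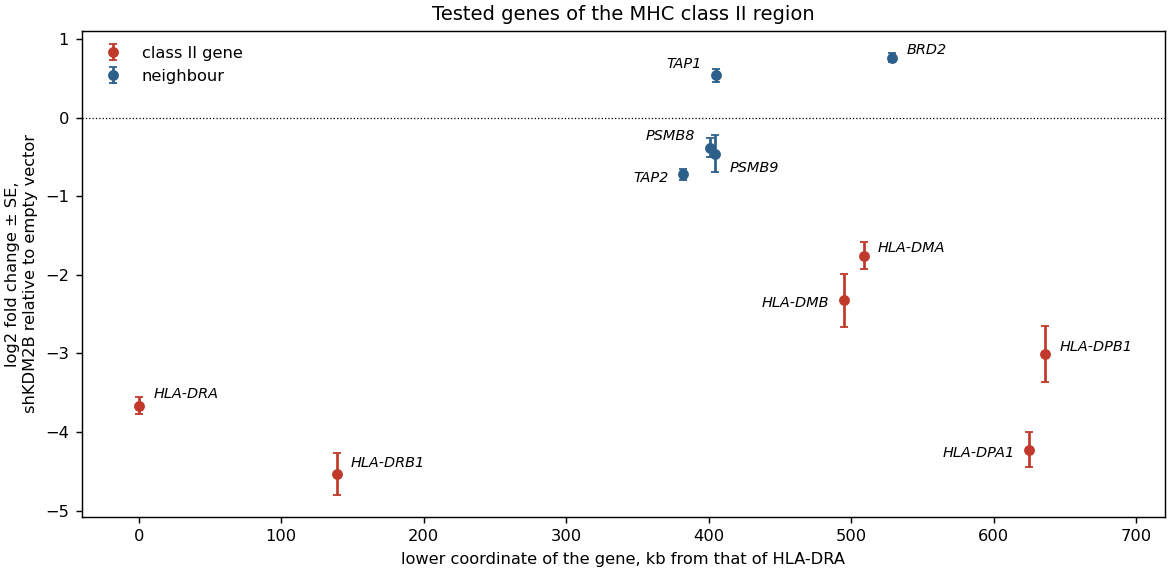
Log2 fold change ± SE, shKDM2B relative to empty vector, of the 11 tested genes of the class II region against the distance of each gene's lower coordinate from that of HLA-DRA in kilobases. The 6 class II genes (red) lie between -4.53 and -1.76, and the 5 neighbours (blue), which flank the HLA-DM genes, between -0.72 and 0.76.

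Genes for the proteins with which CIITA works moved in both directions. Of 18 genes for RFXANK, NF-Y, CREB-family factors, coactivators and corepressors, all tested, 10 were higher, 3 lower and 5 not called, with a median log2 fold change of 0.21, beside 30.5% higher and 30.4% lower over all tested genes. NCOA3, a coactivator of the p160 family, rose most, to 177.7 ± 7.71 CPM in shKDM2B against 82.3 ± 6.001 CPM in empty vector (log2 fold change 1.11, SE 0.06, adjusted p 2.31e-09, edgeR's quasi-likelihood test). The acetyltransferases KAT2B (0.83), CREBBP (0.58) and EP300 (0.58) and the p160 coactivator NCOA1 (0.45) were also higher on the log2 scale. So were the corepressor-associated deacetylases HDAC1 (0.57) and HDAC2 (0.17), the CREB-family factor ATF1 (0.26, not called without shKDM2B replicate 3) and the NF-Y subunit NFYA (0.25).

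Lower partners were few and changed modestly. CARM1, an arginine methyltransferase that acts with CIITA, was lower at 40.2 ± 1.05 CPM in shKDM2B against 57.3 ± 4.43 CPM in empty vector (log2 fold change -0.51, SE 0.07, adjusted p 2.00e-05, edgeR's quasi-likelihood test). The NF-Y subunit NFYC (-0.32) and the acetyltransferase KAT2A (-0.25) were lower too. NFYB (-0.22), CREB1 (0.12), SMARCA4 (-0.08), EZH2 (0.11) and SIN3A (0.00) did not pass. Without empty vector replicate 2, NFYB (-0.32) and EZH2 (0.15) passed.

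Interferon gamma is the usual inducer of CIITA, through its receptor, the kinases JAK1 and JAK2, and IRF1. Of 13 genes of this route and its regulators, 8 were higher, 2 lower and 3 not called (median log2 fold change 0.56). Over all tested genes, 30.5% were higher and 30.4% lower. The receptor gene IFNGR1 had 553, 686 and 864 counts in shKDM2B against 291, 274 and 450 in empty vector (log2 fold change 0.96, SE 0.08), and IFNGR2 was higher by 0.67. JAK1, the receptor's kinase, stood at 350.9 ± 7.20 CPM in shKDM2B and 182 ± 5.83 CPM in empty vector (log2 fold change 0.95, SE 0.05, adjusted p 9.25e-10, edgeR's quasi-likelihood test). IRF1, which binds the interferon-responsive CIITA promoter, had 266, 312 and 378 counts in shKDM2B against 159, 182 and 238 in empty vector (log2 fold change 0.63, SE 0.09). JAK2 (log2 fold change 0.49), named after its values were seen, was higher too. CIITA was lower in the same libraries.

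Regulators of the route moved both ways. PRDM1 encodes BLIMP1, which silences CIITA when B cells become plasma cells. It had 129, 145 and 236 counts in shKDM2B against 42, 32 and 52 in empty vector, or 13.5 ± 1.58 CPM in shKDM2B and 3.62 ± 0.529 CPM in empty vector (log2 fold change 1.90, SE 0.15, adjusted p 8.82e-08, edgeR's quasi-likelihood test). SOCS3, a feedback inhibitor of JAK signalling, was higher by 0.56 on the log2 scale. USF1 (-0.27), an E-box factor of the CIITA promoter, and PIAS1 (-0.34) were lower, both named after their values were seen.

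Several endosomal proteases that serve class II were higher. Of 12 genes for processing and turnover, 11 were tested, with 6 higher, 3 lower and 2 not called (median log2 fold change 0.66), beside 30.5% higher and 30.4% lower over all tested genes. Of the 6, CTSH (log2 fold change 0.25), was not called under 4 alternatives. The protease genes CTSD, CTSB and LGMN were higher, CTSD with 2905, 3381 and 4435 counts in shKDM2B against 540, 609 and 740 in empty vector (log2 fold change 2.40, SE 0.06, adjusted p 6.36e-13, edgeR's quasi-likelihood test). CTSB was higher by 1.28 and LGMN by 1.25 on the log2 scale. CTSS, which makes the last cuts in the invariant chain, was named after its values were seen and had 5.58 ± 0.154 CPM in shKDM2B and 2.46 ± 0.251 CPM in empty vector (log2 fold change 1.19, SE 0.17).

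MARCHF1 and MARCHF8, the ubiquitin ligases that send class II molecules from the surface to degradation, were lower. MARCHF1 had 178, 172 and 276 counts in shKDM2B against 475, 377 and 618 in empty vector (log2 fold change -1.33, SE 0.11). MARCHF8 was lower by 1.06 on the log2 scale (log2 fold change -1.06, SE 0.08), and the cathepsin gene CTSZ had a log2 fold change of -0.81. These are RNA levels, and no protein at the cell surface was measured.

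Class I presentation shows peptides of the cell's own proteins to CD8+ T cells, and its genes moved in both directions. The class II genes were chosen for being lower, so no contrast between class I and class II is drawn. Of 19 genes, 17 were tested, with 9 higher, 3 lower and 5 not called (median log2 fold change 0.22). The shares over all tested genes were 30.5% higher and 30.4% lower. Summed over the list, the level was 4272 to 4425 CPM in shKDM2B and 4624 to 4766 CPM in empty vector libraries. HLA-B had 1712, 1966 and 2520 counts in shKDM2B against 555, 713 and 731 in empty vector (log2 fold change 1.53, SE 0.08, adjusted p 2.095e-09, edgeR's quasi-likelihood test). HLA-C (1.48) and TAPBP (1.28), the tapasin gene, were also higher on the log2 scale. TAP2 (-0.72) and the chaperone gene CANX (-0.67) were lower. Classical class I genes are near copies of each other, so how reads were divided among them is uncertain.

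Some of the signals that a class II-bearing cell gives to helper T cells were at or near 0 counts. CD40 and CD86 had no count in any library and CD80 had at most 1. Of the 8 genes listed, 3 were tested and all 3 were higher, beside 30.5% higher and 30.4% lower over all tested genes. They were TNFSF9 (log2 fold change 1.46, SE 0.14), CD58 (0.73, SE 0.11) and the adhesion molecule gene ICAM1 (0.44, SE 0.08).

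**Figure D4:**
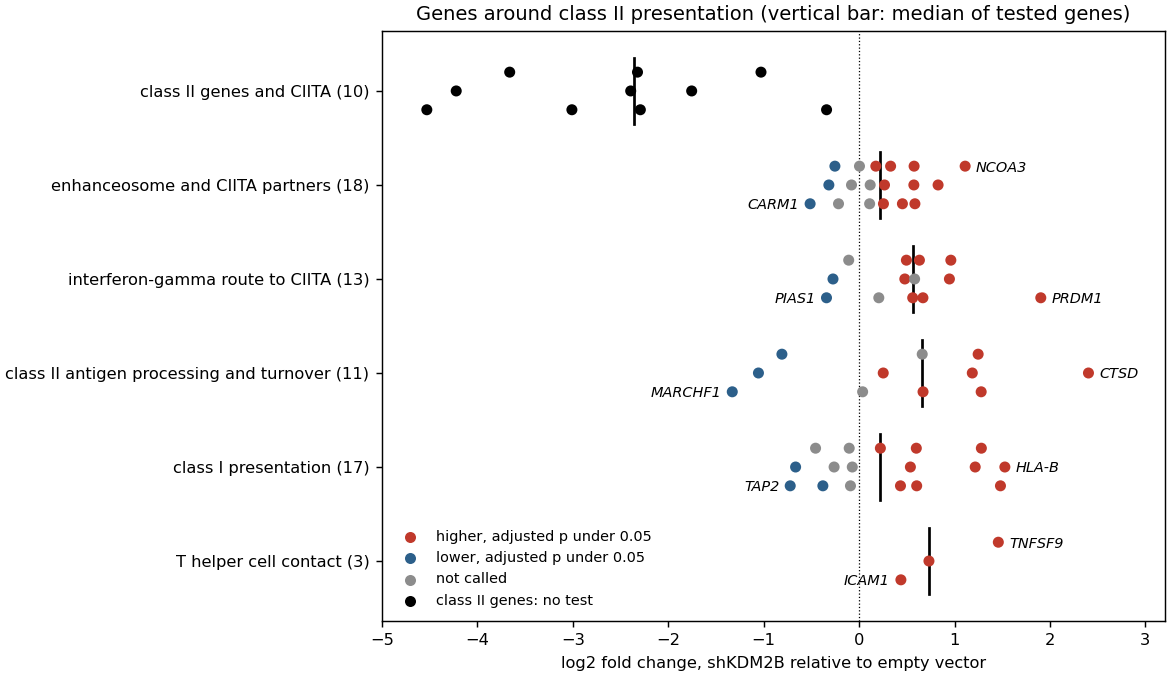
Log2 fold change, shKDM2B relative to empty vector, of every tested gene of 5 lists around class II presentation, with the 10 class II genes in the top row and a vertical bar at each row's median. The top row has its median at -2.36, and the medians of the 5 lists lie between 0.21 and 0.73.

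The profile of CIITA over the 6 libraries was compared with those of 13695 tested genes of at least 1 CPM, by Euclidean distance between row-centred log2 CPM values. CD74 was the nearest of all, at 0.17. The 5 nearest genes outside the 10 were EEF2 (0.23), the translation elongation factor gene, TNC (0.24), the matrix protein tenascin C, TRAF7 (0.24), STC1 (0.24), the hormone gene stanniocalcin 1, and ABCC9 (0.26), a subunit of potassium channels. EEF2 had 298 ± 16.6 CPM in shKDM2B and 1413 ± 31.9 CPM in empty vector. With only 2 groups of 3 libraries, such likeness mainly means a similar difference between the groups. The other members lay farther off, HLA-DMA at 0.88, HLA-DMB at 1.06, HLA-DPB1 at 1.36, HLA-DRA at 1.60, RFXAP at 1.71, HLA-DRB1 at 2.00, HLA-DPA1 at 2.21 and RFX5 at 2.47.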

How the data were processed

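The deposited table holds whole-number counts of reads per gene for 6 libraries, 1 column each, made by the authors and not normalized. GRCh38 (hg38) is the build in the submitters' processing notes, which list the tools DESeq2, edgeR, featureCounts, limma, STAR and Trim Galore. Not given in the sources used here: versions, roles, annotation, strand setting and the treatment of reads with several matches. The knockdown columns are named by sh, an unexplained code and a number, and were taken as shKDM2B, the only shRNA group. The labels call the replicates biological without naming separate cultures, so p-values measure only how these libraries spread, which can be technical. No library was a copy of another (chi-square over degrees of freedom at least 2 within a group).

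After filterByExpr (at least 10 counts, 15 in total) and TMM scaling, the groups were compared with the robust, two-sided quasi-likelihood test of edgeR 4.0.16 in R 4.3.3, with Benjamini-Hochberg adjustment over 14071 genes, and an adjusted p under 0.05 was called. Log2 fold changes set shKDM2B over empty vector, and the SE is the fold change over the root of F. CPM uses TMM-scaled library sizes. The steps were tested on simulated data. The 10 genes, the gene lists and the tests were chosen with earlier results of these data known. Genes named were KDM2B, the 10, every counted gene of the other class II and partner lists, up to 6 called genes of each other list with a mean of at least 5 CPM by size of change, and the 5 nearest to CIITA in pattern. Others are said to be named after their values were seen. Coordinates of genes and shared exons come from GENCODE release 29 on GRCh38, and promoters from RefSeq (Python 3.11.15). Alternatives were other size factors, upper-quartile scaling, 2 other filters, DESeq2 1.42.0, limma-voom 3.58.1, no robust step, a replicate block, a prior count of 2, and fits without 1 library.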

Additional observations from a re-analysis of the deposited data

How the results depend on the processing

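Under the 15 alternatives run, all 150 fold changes of the 10 genes stayed below 0, and 3 moved by more than the spread between replicates: HLA-DRB1 to -3.92 with a prior count of 2 and -4.74 without shKDM2B replicate 3, and HLA-DPB1 to -3.75 without shKDM2B replicate 2. Their median log2 fold change ran from -2.53 to -2.32. The number of changed genes, 8571 in the fit reported, ran from 7566 to 9128. With the replicate block it was 8478 and the median of the 10 was -2.35. The labels do not say that equal replicate numbers share a culture, day or batch, so the numbers were not taken to pair the samples. Deviations of same-numbered libraries correlated by 0.12, -0.03 and 0.08, and those of differently numbered libraries by -0.135 to 0.084. Of 855 values of the 57 other genes followed, 18 changed call. NLRC5 (log2 fold change 0.22, adjusted p 0.0359 by edgeR's quasi-likelihood test) lost its call under 8 alternatives, the replicate block included (adjusted p 0.0506), and CTSH under 4. RFXANK, ATF1, PSMB8, NFYB and EZH2 each depended on 1 library, and HDAC2 (0.15, adjusted p 0.0633) was not called with no filter beyond 1 read. No cause of these changes was tested. Depth limits the shKDM2B values of HLA-DRB1, HLA-DPA1, HLA-DPB1 and HLA-DMB, which rest on 2 to 13 counts per library.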

Other observations

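CSF1R, the receptor of macrophage colony-stimulating factor, was the single tested gene of the myeloid and dendritic list and had 34, 31 and 53 counts in shKDM2B against 8, 15 and 15 in empty vector (log2 fold change 1.52, SE 0.26, adjusted p 0.000164 by edgeR's quasi-likelihood test). CD14, a monocyte receptor that missed the filter on low counts, had 8, 8 and 12 counts in shKDM2B against 1, 3 and 3 in empty vector, with no overlap between the groups. TNFSF4, the OX40 ligand gene, which also missed the filter and was named after its values were seen, had 15, 14 and 14 counts in shKDM2B against 4, 2 and 3 in empty vector. Both genes lie opposite in direction to the class II genes, and neither was tested.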
